A study of Mus musculus with 16 samples.

Results

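The erythroid genes described here are 33 mouse genes used by cells on the way to the red blood cell, chosen by name. They cover 5 parts of the membrane skeleton, 7 surface proteins, 8 genes of heme synthesis and iron, 6 genes of gas transport and red cell metabolism, and 7 regulators and receptors. A gene counted as measured where an array probe set, a group of probes summarised as 1 value, named that gene alone. Of the 33 genes, 32 were measured, among 19938 genes measured in all. The other was Ahsp, the chaperone of free alpha globin, which no probe set named. Prdx2 was the one measured gene with more than 1 probe set, and its brighter probe set was used. Genes that are largely restricted to erythroid cells make up 16 of the 33, of which 15 were measured, and the other 17 are also used by other blood or tissue cells.

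Red blood cells form in the bone marrow from progenitors that answer to the hormone erythropoietin through its receptor, Epor. Under the transcription factors GATA1 and KLF1, the maturing erythroblast fills with heme and globin, builds a spectrin-based skeleton under its membrane, and then loses its nucleus. Its transcripts persist for a time in the enucleated reticulocyte, so bulk marrow RNA commonly carries them.

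The series examined mouse B cell precursor acute lymphoblastic leukemia, a cancer of immature B cells that can arise where 1 copy of Pax5, the factor that fixes B cell identity, is missing. Leukemic bone marrow of 6 mice heterozygous for both Bank1 and Pax5 (Bank1+/- + Pax5+/-, written Bank1/Pax5 leukemia) and of 6 mice heterozygous for Pax5 alone (Pax5+/-, written Pax5 leukemia) was set beside 4 arrays of wild-type (WT) bone marrow pro-B and pre-B cells. Bank1 encodes a B cell scaffold protein with ankyrin repeats, and every leukemia carried the Pax5 deletion. Each array is labelled as a biological replicate, while the design text counts 3 WT mice for the 4 WT arrays. The leukemias are labelled as total bone marrow, so their RNA can hold that of other marrow cells. The sources used here do not give the strain, the ages, or how the WT cells were isolated. In bulk RNA, fewer cells of a type and less RNA per cell cannot be told apart.

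Each value below is a log2 intensity as deposited, and the array medians lay between 6.58 and 6.71. The number of arrays limits the precision. Arrays correlated over all probe sets at 0.944 to 0.987 within Bank1/Pax5 leukemia, 0.968 to 0.982 within Pax5 leukemia and 0.992 to 0.995 within WT. Pax5 was at 7.85 to 11.85 in Bank1/Pax5 leukemia, 7.52 to 12.21 in Pax5 leukemia and 11.85 to 12.12 in WT. Bank1 was at 7.26 to 9.52 in Bank1/Pax5 leukemia, 8.80 to 11.09 in Pax5 leukemia and at most 9.26 in WT (median 9.20), and the Bank1/Pax5 group lay under the Pax5 group by a log2 difference of -1.54 ± 0.38 (SE; limma adjusted p = 0.0265). Against WT, Bank1 did not pass the test in Bank1/Pax5 leukemia (-0.53, limma adjusted p = 0.404) or in Pax5 leukemia (1.01, adjusted p = 0.0964). The B cell precursor marker Cd79a was at 12.83 to 13.07 in WT and at 9.09 to 12.99 over the leukemias.

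Erythroid RNA was present on all 16 arrays, and its amount set 3 Bank1/Pax5 leukemias apart. The shared level, the median log2 value over the 32 measured genes, was 7.73, 7.90, 7.54 and 7.76 on the 4 WT arrays. Across the Pax5 leukemias it was lowest at 6.89, with a median of 7.23 and a highest value of 7.62. Across the Bank1/Pax5 leukemias it was lowest at 7.01 and highest at 9.99, with a mean of 8.22 ± 1.16 (SD, n = 6). Within Bank1/Pax5 leukemia, arrays 1, 4 and 5 lay above every WT array, at 9.99, 8.42 and 9.06, whereas arrays 2, 3 and 6 lay among the Pax5 leukemias, at 7.58, 7.01 and 7.24. No Pax5 leukemia reached the highest WT array. The median over the 32 genes of the difference from the WT mean was 1.49, 0.27 and 0.95 on those 3 arrays, and -0.74 to -0.56 on the other 9 leukemias (lowest Bank1/Pax5 array 6, highest Pax5 array 5).

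**Figure D1:**
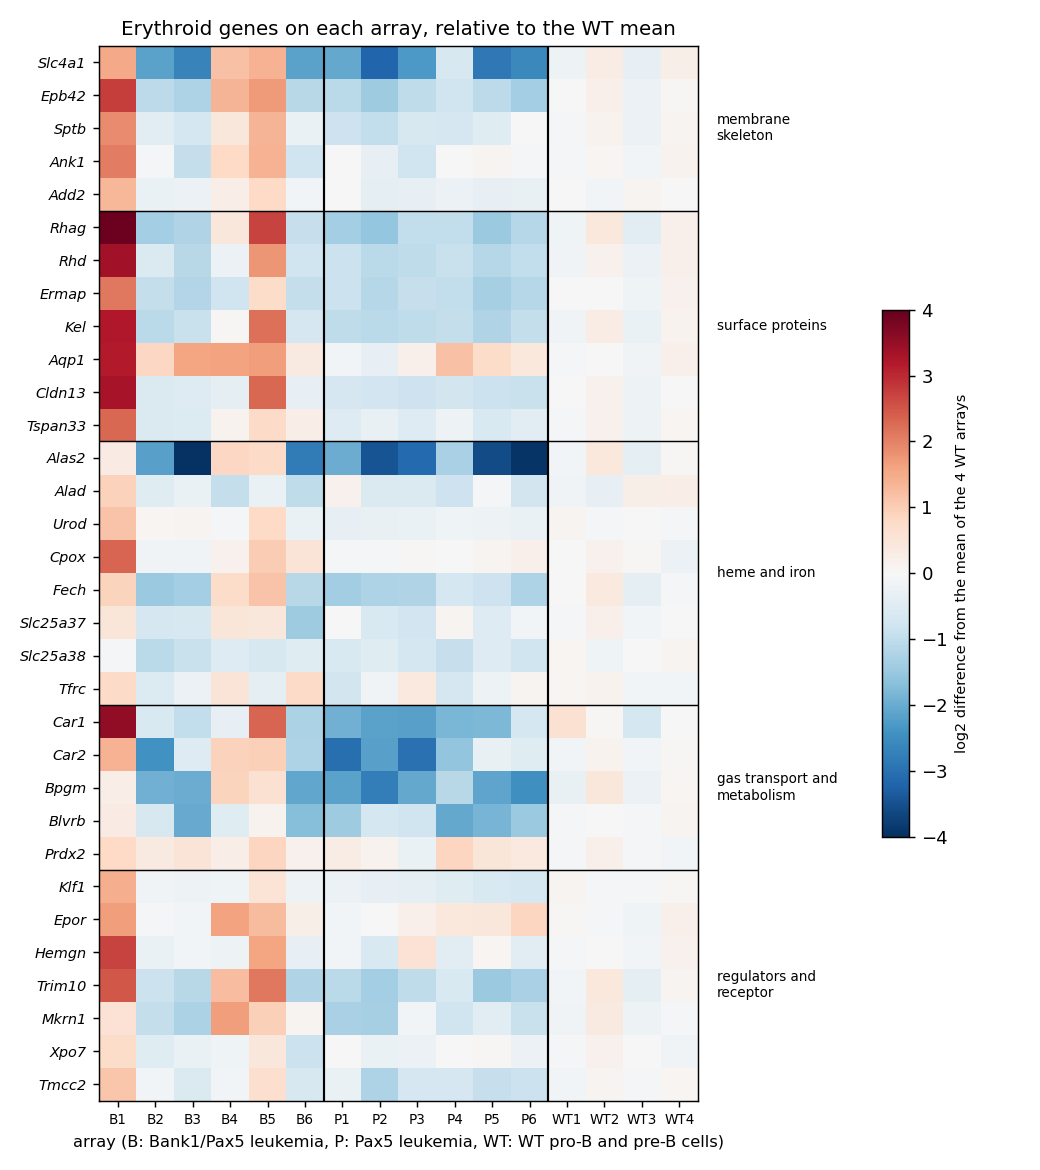
Each row is 1 of the 32 measured erythroid genes, grouped by role, and each column 1 of the 16 arrays (B1 to B6, Bank1/Pax5 leukemia; P1 to P6, Pax5 leukemia; WT1 to WT4, wild-type cells). Colour gives the log2 difference from the mean of the 4 WT arrays. Columns B1, B4 and B5 are mostly red, while the other leukemias are mostly blue. The rows of Aqp1, Prdx2, Epor and Cpox are above the WT mean in most leukemias.

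Promoter sequences were taken from RefSeq (mouse build GRCm38.p6) for genes that are largely restricted to erythroid cells and carry a GATA motif just before the start site, since this motif is the one read by GATA1. The 120 bases before the annotated start are given 5′ to 3′ on the gene's strand, and capitals mark 2 kinds of letters found on either strand: a GATA motif, which is AGATAA or its variants with another first base, TGATAA, with another last base, AGATAG, or with both changed, TGATAG, and a C-rich motif of the kind KLF1 binds (CCNCNCCC, N being any base), whose overlapping matches run together.
Alas2: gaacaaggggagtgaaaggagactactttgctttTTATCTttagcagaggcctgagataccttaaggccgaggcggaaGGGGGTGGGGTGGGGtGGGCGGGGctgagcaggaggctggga
Rhd: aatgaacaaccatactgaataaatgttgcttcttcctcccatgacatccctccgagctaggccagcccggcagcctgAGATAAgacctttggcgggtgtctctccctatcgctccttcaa
Hemgn: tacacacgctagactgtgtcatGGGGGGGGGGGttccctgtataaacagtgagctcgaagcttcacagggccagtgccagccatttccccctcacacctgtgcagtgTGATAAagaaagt
Klf1: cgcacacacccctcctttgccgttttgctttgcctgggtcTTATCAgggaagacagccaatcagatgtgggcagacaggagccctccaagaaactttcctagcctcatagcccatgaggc
The stretches lie at chrX:150547297-150547416 (plus strand) for Alas2, chr4:134864416-134864535 (plus strand) for Rhd, chr4:46404184-46404303 (minus strand) for Hemgn and chr8:84901862-84901981 (plus strand) for Klf1. The GATA motif nearest the start ended 80, 37, 7 and 74 bases before it, respectively.

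A window of 250 bases before the start was found for 24 of the 33 genes. Of the 11 windows of genes restricted to erythroid cells, 10 (90.9%) held a GATA motif, against 2 of 13 (15.4%) of the erythroid genes also used by other cells and 7322 of 27025 promoters in all (27.1%). The C-rich motif was in 4 of those 11 windows (36.4%), in 11 of the 13 others (84.6%) and in 45.6% of all promoters. These are counts of letters and not of bound sites.

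The erythroid genes spread widely between the arrays of Bank1/Pax5 leukemia. The SD over the 6 arrays had a median of 1.10 over the erythroid genes (range 0.29 to 2.23), against 0.18 over all genes, and 21 of the 32 were above the 95th percentile of all genes, 0.89. In Pax5 leukemia the median SD was 0.32 against 0.16 for all genes, with 3 of 32 above the 95th percentile. In WT it was 0.16 against 0.087, with 11 of 32 above. Across the 12 leukemias the widest ranges were those of Car1 (5.70), Rhag (5.45), Alas2 (4.80), Slc4a1 (4.70), Rhd (4.50) and Car2 (4.42), and the median range was 2.95 for the erythroid genes and 0.67 for all genes.

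The membrane skeleton genes followed the arrays closely. Slc4a1 encodes band 3, the anion exchanger that anchors the skeleton. It was at 10.10, 10.61, 9.98 and 10.55 in WT, from 7.13 (median 7.87) to 9.67 in Pax5 leukemia, and from 7.64 (median 9.83) to 11.83 in Bank1/Pax5 leukemia. Bank1/Pax5 arrays 1, 4 and 5 (11.83, 11.49 and 11.71) were above all WT arrays and the other 9 leukemias below all of them. The Pax5 leukemia minus WT difference of -2.27 ± 0.84 (SE) did not pass the test (limma adjusted p = 0.0654). It passed without Bank1/Pax5 array 3 (adjusted p = 0.0473) or Pax5 array 4 (adjusted p = 0.0444), and with dim genes left out (adjusted p = 0.0441). With weights for arrays it also passed (limma adjusted p = 0.0216), as it did with only Pax5 leukemia and WT fitted (adjusted p = 0.00351). The same held without Bank1/Pax5 arrays 1, 4 and 5, a choice made after the data were seen (adjusted p = 0.00156).

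Epb42, the protein 4.2 that binds band 3, was at 6.85 to 7.31 in WT, at 5.67 to 6.31 in Pax5 leukemia, and at 9.86, 8.46 and 8.79 on Bank1/Pax5 arrays 1, 4 and 5. Sptb, the erythroid beta spectrin, reached 9.58 on Bank1/Pax5 array 1 and 9.04 on array 5, against at most 7.81 in WT and 7.67 in Pax5 leukemia. Ank1, the ankyrin that links spectrin to band 3, showed the same order with 9.64, 8.39 and 8.96 on arrays 1, 4 and 5, against 7.45 to 7.72 in WT. Add2, the beta adducin, stayed under 6.96 in every group mean, the median of named probe sets, a level called dim here. Its highest value was 7.52, on Bank1/Pax5 array 1. None of the 5 skeleton genes passed the test in any comparison.

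Among the surface proteins, the blood group genes separated arrays 1 and 5 from array 4. Rhag, the ammonia channel that carries the Rh complex, was at 6.16, 6.75, 5.92 and 6.53 in WT. It ranged from 4.80 (median 5.10) to 5.35 in Pax5 leukemia and from 4.99 (median 6.11) to 10.26 in Bank1/Pax5 leukemia. Only Bank1/Pax5 arrays 1 (10.26), 5 (9.05) and 4 (6.80) exceeded the highest WT array, array 4 only slightly, and every Pax5 leukemia was below WT.

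Rhd, the Rh antigen, was at 6.69, 6.99, 6.59 and 7.04 in WT, ranged from 5.70 (median 5.84) to 5.97 in Pax5 leukemia, and ranged from 5.73 (median 6.43) to 10.20 in Bank1/Pax5 leukemia. Arrays 1 (10.20) and 5 (8.61) were above WT, and array 4 (6.59) was not. Kel, the endopeptidase of the Kell blood group, reached 9.66 and 8.63 on arrays 1 and 5, against 6.16 to 6.73 in WT and at most 5.50 in Pax5 leukemia. Its value on array 4, 6.48, was inside the WT range.

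Ermap, the Scianna blood group protein, was at 9.61 and 8.25 on arrays 1 and 5 but at 6.72 on array 4, under the lowest WT array (7.34). Cldn13, a claudin made by mouse erythroblasts, was at 9.20 and 8.20 on arrays 1 and 5 and at 5.54 on array 4, with WT at 5.69 to 6.08. All 6 Bank1/Pax5 values of Cldn13 (5.31 to 9.20) were above all 6 Pax5 values (5.01 to 5.23), although the lower ones are dim. The tetraspanin Tspan33 was at 8.90 and 7.39 on arrays 1 and 5 and at 6.00 to 6.87 on the other 10 leukemias.

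Aqp1, the water channel of the red cell, was the one erythroid gene that rose in Bank1/Pax5 leukemia. It was at 7.33, 7.42, 7.26 and 7.62 in WT, ranged from 7.09 (median 7.73) to 8.59 in Pax5 leukemia, and ranged from 7.76 (mean 8.95) to 10.58 in Bank1/Pax5 leukemia. All 6 Bank1/Pax5 arrays were above all 4 WT arrays, and the log2 difference was 1.54 ± 0.42 (SE; limma adjusted p = 0.0184), a 2.91-fold higher level. The call was lost without WT array 3 (adjusted p = 0.0541) and without Bank1/Pax5 arrays 1, 4 and 5 (difference 0.93, adjusted p = 0.0971). Aqp1 is also made by endothelium, and 3 of 7 stromal and endothelial markers passed as higher in the same comparison. Their part in the result was not tested.

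**Figure D2:**
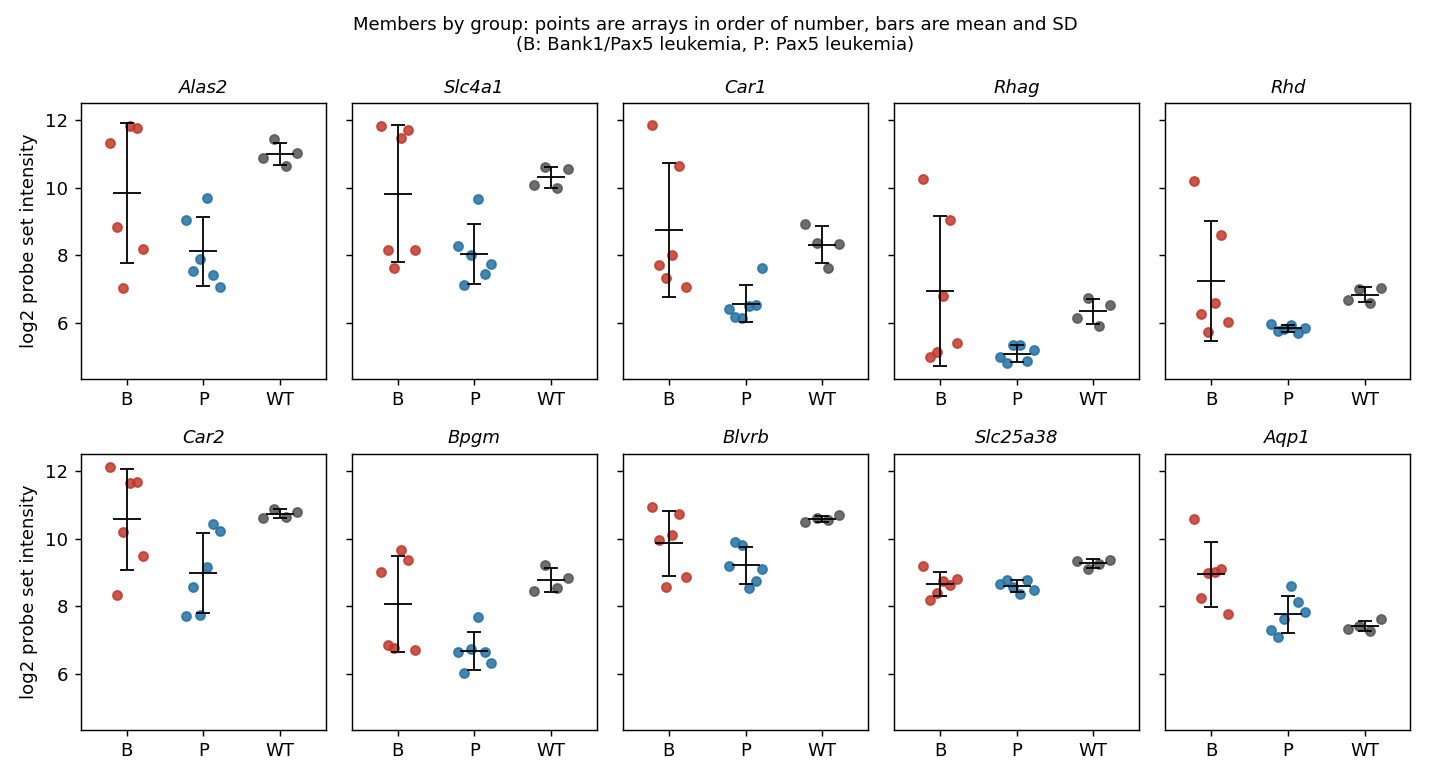
Log2 probe set intensity of 10 erythroid genes, the 6 with the widest range over the leukemias and the others called in a comparison (B, Bank1/Pax5 leukemia, n = 6; P, Pax5 leukemia, n = 6; WT, n = 4). Points are single arrays in order of number within a group, and bars give mean and SD. Slc4a1, Alas2 and Bpgm have 3 high and 3 low points in Bank1/Pax5 leukemia, while Rhag and Rhd have 2 clearly high points.

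Genes of heme synthesis and iron held 2 of the 4 that fell in Pax5 leukemia. Alas2, the erythroid enzyme of the first step of heme synthesis, was at 10.89, 11.44, 10.65 and 11.04 in WT. It ranged from 7.08 (median 7.72) to 9.71 in Pax5 leukemia and from 7.04 (median 10.09) to 11.84 in Bank1/Pax5 leukemia. All 6 Pax5 leukemias were below all 4 WT arrays, and so were Bank1/Pax5 arrays 2, 3 and 6 (8.85, 7.04 and 8.20). Alas2 fell in Pax5 leukemia, with a log2 difference from WT of -2.89 ± 0.88 (SE; limma adjusted p = 0.0282), or 7.40-fold. The call was lost when Pax5 array 2, 5 or 6, or any 1 WT array, was left out (adjusted p at most 0.0696).

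Slc25a38, the mitochondrial glycine carrier that feeds heme synthesis, was at 9.34, 9.10, 9.26 and 9.38 in WT. It ranged from 8.35 (median 8.62) to 8.79 in Pax5 leukemia and from 8.19 (median 8.69) to 9.21 in Bank1/Pax5 leukemia. It fell in both kinds of leukemia. The log2 difference from WT was -0.67 ± 0.16 (SE; limma adjusted p = 0.00661) for Pax5 leukemia and -0.61 ± 0.16 (SE; limma adjusted p = 0.0122) for Bank1/Pax5 leukemia. Array 1 alone of the Bank1/Pax5 leukemias reached into the WT range, and neither fall reached 2-fold. This gene had the narrowest range over the leukemias, 1.02.

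Fech, ferrochelatase, the enzyme that places iron in the heme ring, was at 10.12, 9.96 and 10.37 on Bank1/Pax5 arrays 1, 4 and 5, above WT (8.88 to 9.62), and at 7.74 to 8.52 on the other leukemias, below WT. Slc25a37, mitoferrin, was at 10.92, 10.95 and 10.91 on those 3 arrays, against 10.33 to 10.66 in WT. Cpox, coproporphyrinogen oxidase, was furthest above the WT range (7.56 to 7.99) on Bank1/Pax5 array 1, at 10.12, followed by array 5 at 8.81 and array 6 at 8.33. Urod, uroporphyrinogen decarboxylase, was at 10.91 and 10.55 on arrays 1 and 5, against 9.43 to 9.86 on all other arrays. Alad, which joins aminolevulinate into porphobilinogen, was above WT (10.38 to 10.98) on array 1 alone, at 11.65. Tfrc, the transferrin receptor that dividing cells in general use to take up iron, was at 11.89 on both Bank1/Pax5 arrays 6 and 1, to 2 decimals, against at most 11.26 in WT. Unrounded, its highest leukemia value was on array 6. Tfrc was also above all WT arrays on Bank1/Pax5 array 4 (11.64) and Pax5 array 3 (11.53).

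Genes of gas transport and red cell metabolism held the other 2 genes that fell in Pax5 leukemia. Bpgm, the mutase that makes the 2,3-bisphosphoglycerate which tunes oxygen release, was at 8.47, 9.23, 8.55 and 8.85 in WT, from 6.02 (median 6.65) to 7.67 in Pax5 leukemia, and from 6.71 (median 7.94) to 9.66 in Bank1/Pax5 leukemia. The Pax5 leukemias were all below WT, as were Bank1/Pax5 arrays 2, 3 and 6. Bpgm fell in Pax5 leukemia by a log2 difference of -2.10 ± 0.59 (SE; limma adjusted p = 0.0184), or 4.28-fold, and the call was lost without WT array 2 (adjusted p = 0.0525) or WT array 4 (adjusted p = 0.051).

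Blvrb, the flavin and biliverdin reductase of red cells, was at 10.50, 10.61, 10.55 and 10.72 in WT, from 8.54 (median 9.15) to 9.89 in Pax5 leukemia, and from 8.58 (median 10.04) to 10.93 in Bank1/Pax5 leukemia. Bank1/Pax5 arrays 1 and 5 alone were above WT. It fell in Pax5 leukemia by a log2 difference of -1.38 ± 0.42 (SE; limma adjusted p = 0.0273), or 2.60-fold. That call was lost without Pax5 array 4 or 5 or any 1 WT array (adjusted p at most 0.0746).

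Car1, an erythroid carbonic anhydrase, was at 8.94, 8.37, 7.63 and 8.35 in WT, from 6.15 (median 6.46) to 7.63 in Pax5 leukemia, and from 7.06 (median 7.85) to 11.86 in Bank1/Pax5 leukemia. Arrays 1 (11.86) and 5 (10.64) were above WT and array 4 was within its range. Car2, the carbonic anhydrase of red cells, osteoclasts and other cells, was at 10.62, 10.89, 10.64 and 10.80 in WT, from 7.71 (median 8.86) to 10.44 in Pax5 leukemia, and from 8.32 (median 10.94) to 12.13 in Bank1/Pax5 leukemia. Its 3 values above WT were on Bank1/Pax5 arrays 1, 4 and 5 (12.13, 11.66 and 11.68). Neither gene passed the test in any comparison. Without Bank1/Pax5 array 1 the fall of Car1 in Pax5 leukemia passed (limma adjusted p = 0.0406), and without array 2 that of Car2 did (adjusted p = 0.05), as did the Bank1/Pax5 minus Pax5 difference of Car2 (2.06, adjusted p = 0.0407). With only Pax5 leukemia and WT fitted, the falls of Car1 and Car2 both passed (limma adjusted p = 0.00284 and 0.0371). They also passed with weights for arrays (adjusted p = 0.0468 and 0.0271). Prdx2, a peroxidase that is abundant in red cells, was high on all arrays, at 11.14 to 12.27, and was highest on array 5.

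Of the regulators and receptors, none of 7 passed the test in any comparison. Klf1, the activator of late erythroid genes, was at 7.95 and 7.03 on Bank1/Pax5 arrays 1 and 5, against 6.41 to 6.61 in WT. All 6 Bank1/Pax5 values of Klf1 (lowest 6.29) were above all 6 Pax5 values (highest 6.27), with a narrow gap and both group means dim. Epor was above WT (6.33 to 6.71) on Bank1/Pax5 arrays 1, 4 and 5 (8.16, 8.09 and 7.74), and by less on Bank1/Pax5 array 6 (6.74) and Pax5 arrays 4, 5 and 6 (6.92, 6.96 and 7.35). Hemgn, a nuclear protein of erythroid and progenitor cells, was at 9.04 and 7.92 on Bank1/Pax5 arrays 1 and 5 and at 6.14 on array 4, with WT at 6.23 to 6.52.

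Trim10, a RING finger protein of terminal erythroid maturation, was at 9.43, 8.17 and 9.06 on Bank1/Pax5 arrays 1, 4 and 5, and at 5.45 to 6.35 on the other leukemias, with WT at 6.56 to 7.36. Mkrn1, a ubiquitin ligase, was highest on array 4 (10.73), then array 5 (10.02) and array 1 (9.62), with WT at 8.86 to 9.42. Xpo7, a nuclear export receptor, was at 9.54 to 11.15 over the leukemias, with arrays 1 and 5 (11.15 and 10.86) above all WT arrays (10.28 to 10.59). Tmcc2, a membrane protein, was at 8.38 and 7.94 on arrays 1 and 5 and at 7.16 on array 4, just under WT (7.17 to 7.36).

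Pax5 leukemia was compared with the WT pro-B and pre-B cells. The leukemias are labelled as total bone marrow, so disease, genotype and sample type cannot be told apart in either comparison with WT. Over the 32 erythroid genes, 4 fell (Alas2, Bpgm, Blvrb and Slc25a38) and 0 rose, where 13.8% of all genes fell and 9.53% rose. The median difference was -0.72, against -0.05 over all genes, and 28 of 32 differences were negative. The groups did not overlap for 18 of the 32, all lower in Pax5 leukemia (13.2% of all genes were wholly lower), and for 0 in the other direction (11.6%). The share called was thus near the background, while the share that did not overlap was above it. The fit shares 1 spread per gene over 3 groups, and the Bank1/Pax5 spread enters it. With Pax5 leukemia and WT fitted alone, 22 of 32 were called lower (16.1% of all genes), and with Bank1/Pax5 arrays 1, 4 and 5 left out of the shared spread, 20 were (15.4%). Leaving out Bank1/Pax5 array 1 gave 8, leaving out Pax5 array 5 or WT array 1 or 3 gave 2, and leaving out WT array 2 or 4 gave 1.

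Bank1/Pax5 leukemia was compared with the same WT arrays, so both comparisons share their controls. Here 1 erythroid gene rose (Aqp1; 6.8% of all genes rose) and 1 fell (Slc25a38; 12.8% fell). The groups did not overlap for 1 gene higher (Aqp1; 7.35% of all genes) and 0 lower (12.3%). The median difference was 0.30, against -0.03 over all genes, with 21 of 32 positive. That sign rested on array 1: without it the median was -0.065 and 14 of 32 differences were positive. Without array 5 the median was 0.13, with 20 positive, and without array 4 it was 0.29. Without all 3, arrays chosen by their erythroid level after the data were seen, the median was -0.66, 28 of 32 differences were negative, and 15 were called lower (9.04% of all genes) and 0 higher. Those 15 included Slc4a1 (-2.32), Alas2 (-2.98), Bpgm (-1.99), Fech (-1.32), Rhag (-1.16), Epb42 (-1.14) and Ermap (-1.02). Because the arrays were chosen by the outcome, these counts only describe arrays 2, 3 and 6. The count of genes that rose was 0 without WT array 3, and 2 without Pax5 array 3 or 4 or with only the 2 groups fitted.

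**Figure D3:**
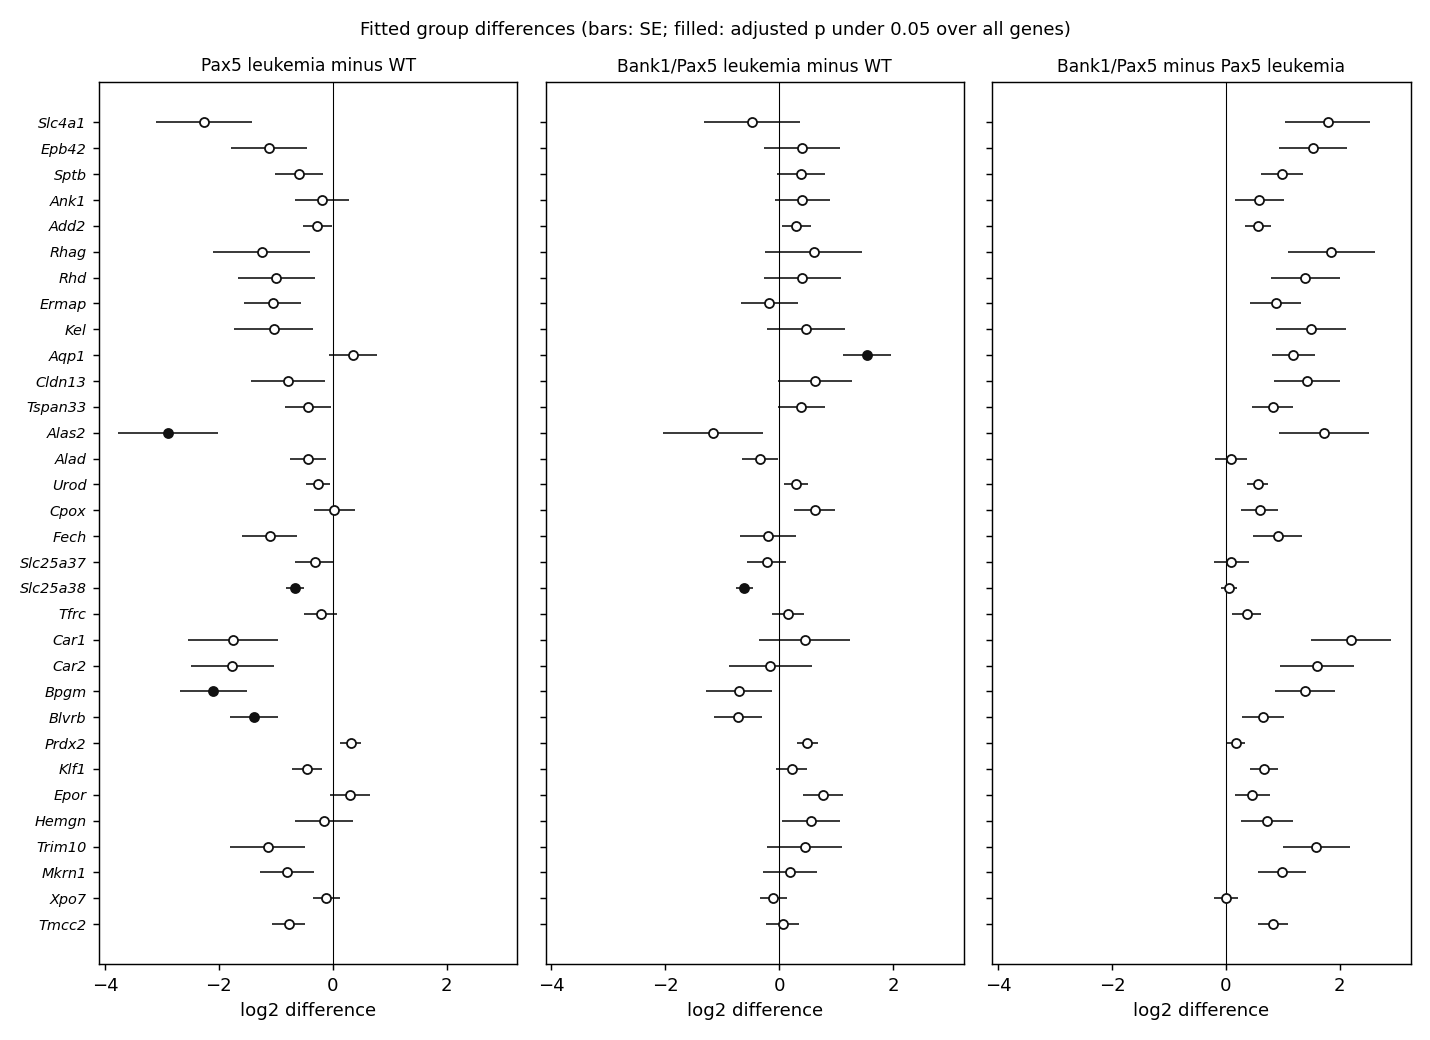
Fitted log2 differences of the 32 erythroid genes in the 3 comparisons, with SE as bars, and filled points for genes with an adjusted p under 0.05 over all genes. In Pax5 leukemia minus WT 28 of 32 points lie left of 0, and in Bank1/Pax5 minus Pax5 leukemia all 32 lie right of it but none is filled.

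Bank1/Pax5 leukemia was also compared with Pax5 leukemia, from which it differs in genotype by Bank1 heterozygosity. Both are labelled as total bone marrow, so genotype and the cell content of the marrow cannot be told apart here. All 32 differences were positive, with a median of 0.86 against 0.02 over all genes, but 0 were called higher (1.71% of all genes) and 0 lower (5%) by limma after adjustment, and 19 had an unadjusted p under 0.05. Under median centring of the arrays 31 of the 32 were positive. Without Bank1/Pax5 array 1 the median was 0.53 and 28 were positive, and without array 5 it was 0.70 with 30 positive. The largest difference was that of Car1, 2.20 ± 0.71 (SE; limma adjusted p = 0.0788), and the smallest was that of Xpo7, 0.0071 ± 0.21 (adjusted p = 0.986). The groups did not overlap for 2 genes higher (Cldn13 and Klf1; 0.833% of all genes) and 0 lower (1.87%). A filter that kept the 21 brighter erythroid genes called 3 higher, Car1 (adjusted p = 0.0481) and Aqp1 (adjusted p = 0.0458) among them. Leaving out Bank1/Pax5 array 6 gave 3 calls, array 2 gave 2 and array 3 gave 1. Without Bank1/Pax5 arrays 1, 4 and 5 the median was 0.079 and 20 of 32 differences were positive, with 0 called. Those arrays were chosen by the level of the same genes, so these values only describe arrays 2, 3 and 6.

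The direction split of all genes moved with the scaling. In Pax5 leukemia minus WT, 1901 genes were called higher and 2754 lower, against 2302 and 2136 after cyclic loess and 2021 and 1953 after median centring. In Bank1/Pax5 leukemia minus WT the main split of 1356 and 2543 became 2079 and 1933 after cyclic loess, and in Bank1/Pax5 minus Pax5 leukemia 340 and 996 became 452 and 618. The counts of erythroid genes called were the same under these scalings as in the main analysis, in all 3 comparisons.

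Most erythroid genes peaked on the same 3 leukemias. The highest of the 12 leukemia values was on Bank1/Pax5 array 1 for 25 genes, on array 4 for 4 (Alas2, Slc25a37, Bpgm and Mkrn1), on array 5 for 2 (Fech and Prdx2) and on array 6 for Tfrc. For 20 of the 32 (62.5%), and for 12 of the 15 restricted to erythroid cells, the 3 highest leukemias were exactly Bank1/Pax5 arrays 1, 4 and 5, as they were for 433 of all genes (2.17%). These 3 arrays were named from the level of the same 32 genes, so the counts here describe that level and do not test it. Array 1 exceeded all WT arrays for 29 of the 32 erythroid genes and for 29.6% of all genes, array 5 for 29 of 32 and 26.3%, and array 4 for 17 of 32 and 31.4%. The other 9 leukemias exceeded all WT arrays for 0 to 5 of the 32 and for 27.9% to 33.1% of all genes. They lay below all WT arrays for 23 to 29 of the 32 and for 30.7% to 50.2% of all genes.

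The 3 arrays did not carry the erythroid genes in equal proportion. Against the WT mean, 28 of 32 genes were higher on array 1 than on array 4, and 27 were higher on array 1 than on array 5. For 7 genes, Car1, Cldn13, Rhd, Rhag, Kel, Hemgn and Ermap, arrays 1 and 5 were both above array 4 by at least 1 log2 unit. The difference between arrays 1 and 4 was 3.86 for Car1, 3.66 for Cldn13, 3.61 for Rhd and 3.46 for Rhag. Between arrays 5 and 4 it was 2.64, 2.66, 2.02 and 2.26 for the same genes. All 7 are among the genes restricted to erythroid cells.

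In contrast, 4 genes, Slc25a37, Alas2, Bpgm and Mkrn1, were lower on both arrays 1 and 5 than on array 4, Mkrn1 by 1.11 and 0.71 log2 units and Alas2 by 0.49 and 0.071. Slc4a1 differed by 0.34 between arrays 1 and 4. Array 4 was therefore within or below the WT range for blood group genes such as Rhd and Ermap while it was above WT for Slc4a1, Alas2, Bpgm and Fech. After the 7 genes above, the widest gaps of array 1 over array 4 were those of Tspan33 (2.16), Cpox (2.15), Alad (1.87) and Klf1 (1.62). Of the genes with sequences printed above, Rhd, Hemgn and Klf1 were higher on array 1 and Alas2 was higher on array 4. Those sequences were chosen for holding a GATA motif, so the motif was not tested against this order.

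**Figure D4:**
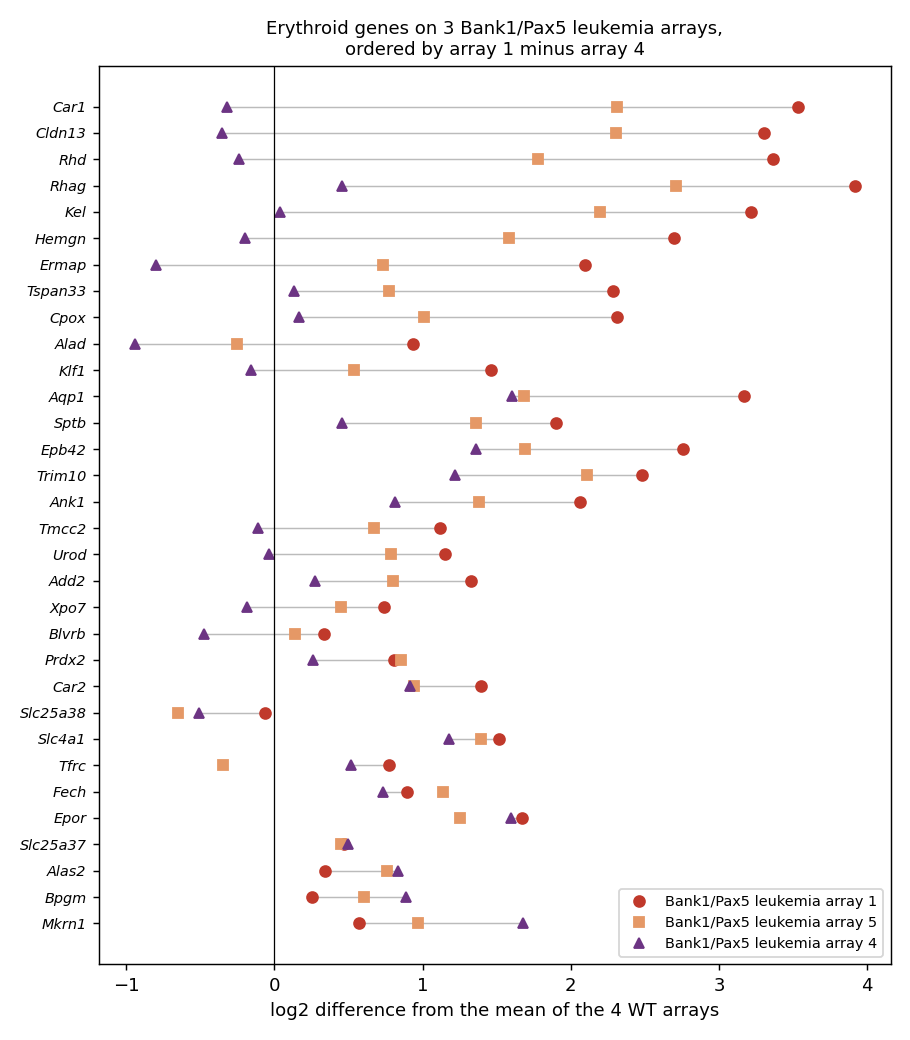
Log2 difference from the WT mean for the 32 erythroid genes on Bank1/Pax5 arrays 1 (circles), 5 (squares) and 4 (triangles), ordered by array 1 minus array 4. Car1 at the top spans 3.86 log2 units between arrays 1 and 4, and for the last rows, Alas2, Bpgm and Mkrn1, array 4 is the highest of the 3.

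Genes restricted to erythroid cells lay further from WT than the others. Their median difference from the WT mean was 2.48, 0.46 and 1.59 on Bank1/Pax5 arrays 1, 4 and 5, against 0.89, 0.26 and 0.77 for the 17 genes that other cells also use. On the Pax5 leukemias it was -1.13 to -0.75, against -0.66 to -0.32. By role, the surface proteins had the largest median on array 1 (3.22) and array 5 (1.78) but 0.039 on array 4, and the skeleton genes had 1.90, 1.38 and 0.81 on arrays 1, 5 and 4. On Pax5 arrays 1 to 5 the lowest medians were those of gas transport and red cell metabolism, at -2.14 to -1.58, and on array 6 that of the surface proteins, at -0.94. Pax5 array 4 had the highest Slc4a1 (9.67), Alas2 (9.71) and Bpgm (7.67) of its group, and Pax5 array 6 the highest Car1 (7.63). Over the group means, 10 of 32 genes were dim in WT, 15 in Pax5 leukemia and 6 in Bank1/Pax5 leukemia, so many of the lower values lie in the dim range.

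Markers of other marrow cells also differed from WT on these arrays, in part within the range of the other leukemias. On Bank1/Pax5 arrays 1, 4 and 5 the median difference from the WT mean was 2.68, 4.33 and 4.10 for 12 monocyte and macrophage markers, 2.58, 3.87 and 3.52 for 7 megakaryocyte markers, and 3.96, 1.35 and 3.85 for 11 neutrophil markers. Over the other 9 leukemias these were 1.43 to 2.75, 0.70 to 3.13 and -1.25 to 3.15. The 9 measured B cell precursor markers were at -1.47, -3.85 and -2.10 on the 3 arrays and at -3.14 to -0.23 on the others. For monocyte and macrophage markers, arrays 4 and 5 were above all of those 9 leukemias, and array 1 was just under Pax5 array 2 (2.75). High neutrophil and megakaryocyte values, and low B cell precursor values, also occurred where erythroid levels were low. Pax5 array 3 had 3.15 for neutrophil markers and -3.14 for B cell precursor markers with an erythroid median of -0.73, and Pax5 array 6 had 3.13 for megakaryocyte markers with -0.72.

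In the fit, all 12 monocyte and macrophage markers and 6 of 7 megakaryocyte markers passed as higher in Bank1/Pax5 leukemia than in WT, and 8 of 12 and 4 of 7 in Pax5 leukemia. None of the 11 neutrophil markers passed in either. Between the leukemias 1 of 12, 0 of 7 and 0 of 11 passed. Of the other lists, NK cell markers passed as lower for 4 of 6 in Bank1/Pax5 and 5 of 6 in Pax5 leukemia, both against WT, and B cell precursor markers for 2 of 9 in each. Stem and progenitor markers passed as higher for 2 of 5 in each, and stromal and endothelial markers for 3 and 4 of 7. No more than 1 marker in each direction passed among 6 T cell, 5 plasma cell, 5 mast cell and basophil, and 7 proliferation markers. Mast cell and basophil markers were nevertheless at 1.89 and 2.13 on Bank1/Pax5 arrays 1 and 5, against -0.097 on array 4, and at 1.85 on Pax5 array 3. Proliferation markers were lowest on Bank1/Pax5 array 4 (-1.91) and array 6 (-1.46). The part of these cells in the erythroid values was not tested.

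**Figure D5:**
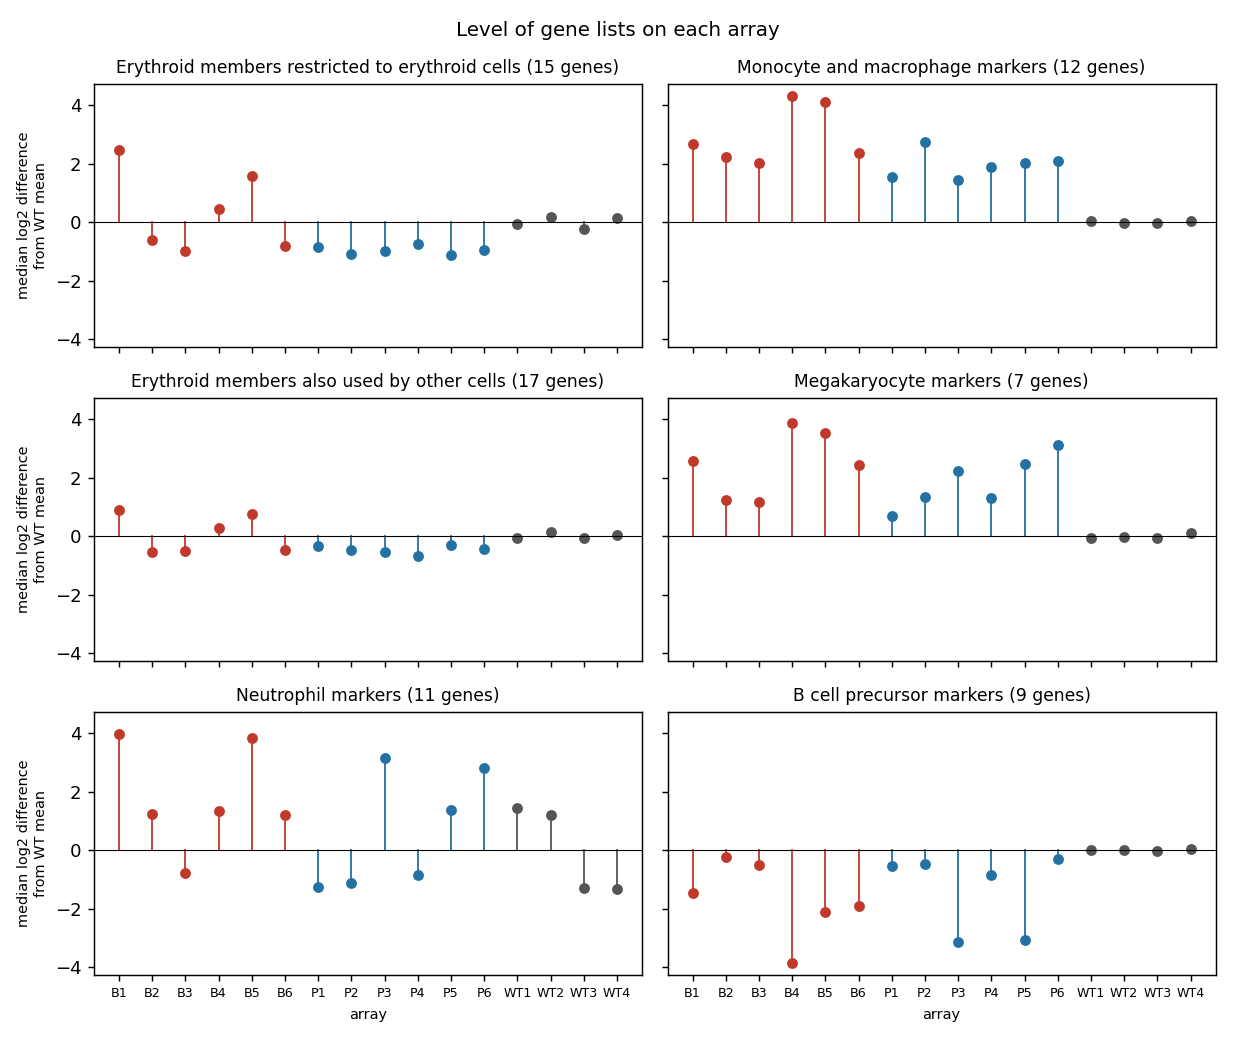
Median log2 difference from the WT mean over each gene list, for every array (red, Bank1/Pax5 leukemia; blue, Pax5 leukemia; grey, WT). The restricted erythroid genes are above 0 on B1, B4 and B5 and below 0 on the other 9 leukemias, whereas monocyte, macrophage and megakaryocyte markers are above 0 on all 12 leukemias.

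Another 50 erythroid genes were measured from a list of globins, transcription factors, heme, membrane and late maturation genes. In Pax5 leukemia minus WT, 5 of 50 passed as higher and 9 as lower. In Bank1/Pax5 leukemia minus WT it was 3 and 4, and between the leukemias 3 and 1. The shares of all genes called in the same order were 9.53% and 13.8%, 6.8% and 12.8%, and 1.71% and 5%. Gata1, the master factor of the lineage, was at 5.98 to 6.20 in WT, at 6.11 to 7.59 in Pax5 leukemia, and at 8.36, 7.55 and 7.97 on Bank1/Pax5 arrays 1, 4 and 5. Gata1 is shared with megakaryocytes. It also exceeded all WT arrays on Bank1/Pax5 arrays 3 (6.22) and 6 and on Pax5 arrays 2 to 6 (6.24, 6.47, 6.21, 7.14 and 7.59). Tal1, its partner, was at 7.11 to 7.37 in WT and was highest on Bank1/Pax5 array 1, at 8.04. Neither passed the test in any comparison.

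Slc40a1 and Slc11a2 had the smallest p of these genes in both comparisons with WT. Slc40a1, ferroportin, which exports iron and is also on the macrophage list, was at 6.41, 6.42, 5.57 and 5.81 in WT and at 7.90 to 11.18 over the leukemias. On the log2 scale it rose by 2.86 ± 0.46 (SE; limma adjusted p = 0.000485) in Pax5 leukemia. In Bank1/Pax5 leukemia the rise was 3.59 ± 0.46 (SE; limma adjusted p = 8.6e-05). Slc11a2, the iron importer DMT1, was at 9.19 to 9.62 in WT and at 7.30 to 8.25 over the leukemias. It fell in both, by log2 differences of -1.52 ± 0.17 (SE; limma adjusted p = 3.1e-05) and -1.65 ± 0.17 (SE; adjusted p = 1.7e-05).

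Glrx5, a glutaredoxin of iron-sulfur cluster assembly, rose in Pax5 leukemia by 0.81 ± 0.18 (SE; limma adjusted p = 0.00485). Ldb1, the adaptor that joins GATA1 complexes, rose in Pax5 leukemia by 0.54 ± 0.087 (SE; limma adjusted p = 0.000521) and its Bank1/Pax5 minus Pax5 difference was -0.38 ± 0.078 (SE; adjusted p = 0.0117). Its partner Lmo2 rose in Bank1/Pax5 leukemia by 1.05 ± 0.27 (SE; limma adjusted p = 0.0122), and the aspartic protease Ctse fell there, at -1.09 ± 0.18 (adjusted p = 0.000745). Isg20, Hk1 and Icam4 were higher in Bank1/Pax5 than in Pax5 leukemia, by 1.58, 0.19 and 0.33 (limma adjusted p = 0.0252, 0.0223 and 0.0398). Without Bank1/Pax5 arrays 1, 4 and 5, 4 of these calls were lost, with a difference of -0.32 for Ldb1 between the leukemias (limma adjusted p = 0.128), 0.92 for Lmo2 (0.0651), 1.08 for Isg20 (0.261) and 0.18 for Icam4 (0.247). This setting was chosen after the data were seen and leaves fewer arrays to test. A lost call there does not show that the call rested on those arrays. The Isg20 call was also lost without Bank1/Pax5 array 1, 5 or 6 or Pax5 array 5 (adjusted p 0.0503 to 0.0622) and with only the 2 groups fitted (0.0778), and the calls of Hk1 and Icam4 were lost in 5 and 18 of the alternatives.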

How the data were processed

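RNA of 16 mouse bone marrow samples was hybridised to arrays. The deposited log2 values were made by the authors with RMA through the oligo package, per the submitters' processing notes; the sources used here give no versions, background settings or hybridisation batches. The values were used without further scaling.

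Of 35556 probe sets, 21789 named 1 gene in the platform annotation, 1621 several and 12146 none. For a gene with several, the probe set with the highest mean was kept, which left 19938 genes. A model with a mean for each group, fitted by limma 3.58.1 (R 4.3.3) with empirical Bayes moderation, took in the 16 arrays together. Calls are two-sided and need p under 0.05 after Benjamini-Hochberg adjustment across the 19938 genes; SE is the moderated standard error. The script was tested on simulated data in which each gene had the same spread in all groups, unlike the erythroid genes here. Levels of lists have no test. Dim means a group mean below 6.96, the median level of probe sets with 1 gene. No other probe sets entered the tests.

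The erythroid genes and all other lists were chosen with earlier results of these data known. Values on every array are given for erythroid genes called in a comparison and for the 6 with the widest range over the leukemias. Of the further genes, Gata1, Tal1 and up to 4 called per comparison with the smallest p are named, and of the B cell precursor list Cd79a. Further marker lists were T cells, NK cells, plasma cells, mast cells and basophils, and stem and progenitor cells.

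The alternatives were a filter on dim genes, the mean of a gene's probe sets, cyclic loess, median centring, moderation with a trend and robust, weights for arrays, a fit of just the 2 groups compared, a replicate block, a 2-fold minimum and leaving out each array. Leaving out Bank1/Pax5 arrays 1, 4 and 5 was added after the data were seen.

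Promoter windows came from a RefSeq table of GRCm38.p6, with 1 window per gene. The array's own genome build is not stated, and coordinates are given for printed promoters only.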

Additional observations from a re-analysis of the deposited data

Results flagged for a closer look

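Single arrays stood apart from their group for 3 genes, by the size of the gap to the nearest array relative to the range of the group. Add2 was at 6.17 on Pax5 array 1, with the next array at 5.95. Car1 was at 7.63 on Pax5 array 6, with the next at 6.53. Prdx2 was at 11.62 on WT array 2, with the next at 11.36. Chance marks about 1 in 20 groups in this way, and 99 groups were examined.

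The adult globins were in no comparison, because their 4 probe sets each name several genes. The alpha globin probe sets reached 13.93 and 13.88 and the beta globin probe sets 13.97 and 13.98, each on Bank1/Pax5 array 4, above all WT arrays.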

How the results depend on the processing

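The difference in mean shared level kept its direction with the mean of probe sets, cyclic loess, median centring, restricted genes alone and the difference from WT: 0.11 to 0.62 for Bank1/Pax5 leukemia minus WT, -0.77 to -0.44 for Pax5 leukemia minus WT and 0.81 to 1.38 between the leukemias. For group medians in place of means, the Bank1/Pax5 direction depended on the measure. With the deposited log2 values, the group median of the shared level was also above that of WT, as it was for restricted genes alone. With the difference from WT, the Bank1/Pax5 group median was -0.15, and -0.082 for restricted genes. No array was left out of these, and Bank1/Pax5 array 2 is the only one of arrays 2, 3 and 6 that lies above any WT array. Of the 1085 values of 42 named gene differences under the alternatives, 990 kept direction and call, 54 lost the call, 27 gained it and 14 reversed.

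Array weights gave 9 erythroid genes lower (24.1% of all genes) and 1 higher (16.5%) in Pax5 leukemia minus WT (main 4 and 0), 3 higher in Bank1/Pax5 leukemia minus WT (main 1; 12.9%) and 2 higher between the leukemias (main 0; 1.69%). With only the 2 groups fitted these were 22 lower (16.1%), 0 higher, 2 higher (6.28%) and 0. The filter on dim genes gave 3 of 21 higher between the leukemias (2.4%), and the 2-fold minimum left 0 lower in Bank1/Pax5 leukemia minus WT. Without Bank1/Pax5 arrays 1, 4 and 5 the counts were 20 lower (15.4%) in Pax5 leukemia minus WT, and 15 lower (9.04%) and 0 higher in Bank1/Pax5 leukemia minus WT. Leaving out 1 array gave 1 to 8 lower in Pax5 leukemia, 0 to 2 higher in Bank1/Pax5 leukemia, and 0 to 3 higher between the leukemias. Fitting fewer groups or arrays changes the shared spread by construction; for the other settings the cause was not tested.

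Reversed without those 3 arrays were the Bank1/Pax5 minus Pax5 differences of Alas2 (-0.090), Blvrb (-0.075), Slc25a38 (-0.15) and Slc4a1 (-0.055), and the Bank1/Pax5 minus WT differences of Car1 (-0.95), Rhag (-1.16) and Rhd (-0.82). The 3 arrays were chosen by their erythroid level, so these reversals only describe arrays 2, 3 and 6. Without array 1 alone Car1, Rhag, Rhd and, between the leukemias, Slc25a38 reversed; over all arrays left out singly the values ran from -0.17 to 0.79 for Car1, -0.0604 to 0.99 for Rhag, -0.18 to 0.71 for Rhd and -0.055 to 0.15 for Slc25a38. Car2 in Bank1/Pax5 leukemia minus WT ran from -0.46 to 0.30, with positive values without array 2 (0.30) or 6 (0.062), and was 0.088 with array weights.

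Whether replicate numbers pair the samples is not stated. Over 14 same-numbered pairs the deviations from the group mean correlated at -0.379 to 0.321, and 6 exceeded 0.1. No correlations of differently numbered pairs were computed, so these values cannot decide it. With the replicate number as a replicate block, 3 erythroid genes were lower in Pax5 leukemia minus WT in place of 4, and Blvrb lost its call (adjusted p = 0.098).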

Other observations

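The adult globins, the oxygen carriers that dominate the transcripts of maturing red cells, were high on every array. Their 4 probe sets lay at 13.38 to 13.83 on the WT arrays and at 11.37 to 13.98 over the leukemias. On all 4, Bank1/Pax5 arrays 4 and 5 were above every WT array and 9 leukemias were below every one, as for Alas2. Array 4 was above array 1 on each, the same order as for Alas2, Bpgm and Mkrn1 and the opposite of that for Rhag and Rhd.

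Hbb-y, an embryonic beta-like globin, was at 4.78 to 5.16 on 15 arrays and at 6.98 on Bank1/Pax5 array 6, an array with a low erythroid level. The late maturation gene Tent5c, a poly(A) polymerase, was at 10.17 to 10.99 in WT and at 10.90, 11.79 and 11.44 on Bank1/Pax5 arrays 1, 4 and 5. Both were chosen after their values were seen.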
